A study of Glycine max with 6 samples.

Results

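The regions described here are places in the soybean genome where chromatin was enriched with one antibody against the transcription factor ABI5 and no peak was called with a second antibody against the same protein. Peaks from different libraries were linked when the overlap reached 50% of the length of the shorter one, and each set of linked peaks was taken as 1 region. Of 39947 regions in all, 2060 held a peak in both antibody 2 libraries and none in either antibody 1 library. The members were thus chosen by the peak calls themselves, so their enrichment with antibody 2 and the absence of an antibody 1 peak are descriptions and were not tested. They are set beside the 11511 regions with a peak in all 4 libraries and, where it helps, beside the 7801 regions missed only by antibody 1 replicate 1.

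ABI5 is a transcription factor of the basic leucine zipper (bZIP) family, whose members bind DNA as dimers through a basic region. In other plants, Arabidopsis above all, ABI5 acts in abscisic acid signalling and is known for switching on genes of late seed development, such as those for late embryogenesis abundant proteins. In chromatin immunoprecipitation followed by sequencing (ChIP-seq), an antibody retrieves the DNA crosslinked to the protein, and a peak is called where the retrieved fragments exceed the local background. A peak called with one antibody and not with another can be read only as a difference in calls, since a site under the calling threshold is listed nowhere.

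Binding of GLYMA.13G153200, which the deposited peak names call ABI5, was mapped in mid-maturation embryos of soybean (Glycine max, cultivar Williams 82) from seeds of 200 to 250 mg. All libraries share this genotype, stage and greenhouse growth, with 10 min of crosslinking in 1% formaldehyde, and no group lacking the protein is labelled. The 4 ChIP libraries are 2 replicates, labelled biological, of each of 2 antibodies raised against different peptides of the protein. Which peptide antibody 1 or antibody 2 recognises is not stated in the labels, so the members cannot be assigned to a part of the protein. The 2 input libraries were not analysed here on their own. The lists held 12047 and 27768 peaks for antibody 1 replicates 1 and 2, and 23296 and 36189 for antibody 2, so the antibody that defines the members also gave the longer list in each replicate. With 2 libraries against 2, an exact permutation test cannot reach 0.05, and no difference between the antibodies was tested. Coordinates are those of the deposited lists, whose genome build is not given in the sources used here, and no gene is named at any region.

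The members were 5.16% of all regions, and 9.58% of the 21501 regions with a peak in both antibody 2 lists. Of the 2060, 2054 consisted of 1 peak from each antibody 2 library and 6 held 3 peaks. They took up 8.85% of the peaks of antibody 2 replicate 1 and 5.71% of those of replicate 2, and covered 744.9 kb. Their median width was 335 bp (237 to 1299 bp), against 465 bp in the regions of all 4 libraries, which join more peaks. The opposite set, with peaks in both antibody 1 libraries and neither antibody 2 library, had 24 regions.

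The absence of antibody 1 at the members was rarely a matter of the overlap threshold. Only 5 of the 2060 members (0.243%) overlapped an antibody 1 peak by any base. In the 3 members nearest to the threshold, at chr13:40765938-40766272, chr10:10284497-10284785 and chr3:38685670-38686179, the overlap was 48.2%, 47.4% and 47.2% of the shorter peak. These were weak sites, with fold enrichments of 3.53, 3.62 and 3.02 in antibody 2 replicate 1 and 3.32, 3.42 and 3.13 in replicate 2. The other pair, at chr20:35498264-35498956 and chr19:46856354-46857023, overlapped by 27.7% and 17.1%. The second of these reached a fold enrichment of 4.29 in replicate 1 and 10.1 in replicate 2.

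Just outside the threshold lay 5 antibody 2 regions that overlapped an antibody 1 peak by 55.3%, 57.0%, 60.1%, 67.8% and 68.0%. They were at chr2:41568222-41568820, chr17:4915163-4915577, chr4:49993383-49994091, chr2:2448158-2448676 and chr2:14838926-14839632. In each the antibody 1 peak came from replicate 2 alone, with fold enrichments of 3.60, 2.35, 3.82, 3.83 and 4.79.

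At distances of 1000 bp and more, antibody 1 peaks lay near the members about as often as other antibody 1 peaks lay near shared regions. Within 500 bp they were more frequent near the members than near the regions of all 4 libraries, which is in part fixed by the rule. Such a region has an antibody 1 peak of its own, left out of the count, and a member has none. The nearest antibody 1 summit, where the signal of a peak is highest, lay a median of 5267 bp from the member (lowest 80.5 bp). It lay within 500 bp for 37 members (1.80%, 95% exact binomial interval 1.27 to 2.47), within 1000 bp for 220 (10.7%, 9.38 to 12.1) and within 2000 bp for 523 (25.4%, 23.5 to 27.3). The nearest antibody 1 summit outside the region itself lay within 500 bp of 0.608% of the regions of all 4 libraries (0.474 to 0.768). It lay within 1000 bp of 9.04% and within 2000 bp of 24.4%, at a median of 5449.5 bp. Of the regions missed only by antibody 1 replicate 1, 1.37% (1.13 to 1.66) had one within 500 bp, an interval that overlaps that of the members. The median distance of the members was 13648 bp to a summit of antibody 1 replicate 1 and 5341 bp to one of the longer replicate 2 list. Without antibody 1 replicate 2, which gives a larger set of members, the share within 1000 bp was 4.23%. All intervals given here cover counting error only. They treat regions of the same libraries as independent and hold no variation between libraries. For fragment numbers, PCR copies without molecular identifiers are also not independent molecules.

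Most members were weakly enriched. Fold enrichment, the ratio of ChIP signal to the local background at the summit as the authors' peak caller gave it, ran from 2.10 through a median of 4.002 to 29.7 in antibody 2 replicate 1. In replicate 2 it ran from 2.26 through 4.76 to 45.3. The quartiles of the members were 3.52 and 4.62 in replicate 1, and 3.97 and 6.09 in replicate 2. The regions of all 4 libraries had medians of 7.41 and 9.16 in the same 2 libraries, and those missed only by antibody 1 replicate 1 had 4.35 and 5.86. A member therefore sat low in both lists, at a median percentile of 23.0 in replicate 1 and 34.4 in replicate 2, where the regions of all 4 libraries had 74.2 and 81.0.

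The significance of the calls followed the same order. The median −log10 q of the members was 8.54 in replicate 1 and 10.98 in replicate 2, against 31.6 and 36.3 in the regions of all 4 libraries. Behind the median member stood 42 fragments at the summit in replicate 1 (95% exact Poisson interval 30.3 to 56.8) and 31 in replicate 2 (21.1 to 44.0), numbers recovered from the deposited fold enrichment and −log10 p. The regions of all 4 libraries had 82 and 58. The recovery had a single solution in 978 members (47.5%) in replicate 1 and 476 (23.1%) in replicate 2, and among several the one with the most nearly whole pileup was kept. Members with a single solution had medians of 46 and 62 fragments, and they were stronger sites, with median fold enrichments of 4.52 and 9.70 against 3.69 and 4.39 in those with several. Over all strengths the local background at the member summits was close to that of the shared regions. Its median was 7.0 in replicate 1 and 5.65 in replicate 2, against 7.11 and 5.43. Backgrounds are in units of the caller's pileup, in which a fragment of replicate 1 counted as 0.749. Among regions whose lower list percentile was at most 25, the members had 7.0 and 5.65, against 8.0 and 6.12 in the shared regions. From the 75th to the 90th percentile, replicate 2 went the other way, with 5.65 against 5.29.

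**Figure D1:**
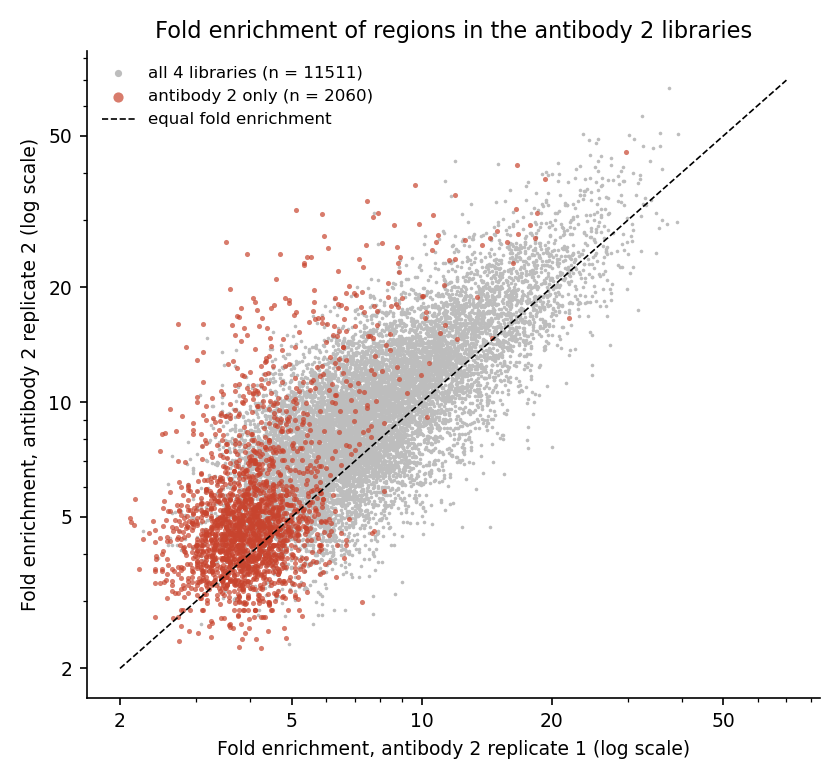
Fold enrichment of each region in antibody 2 replicate 1 (horizontal, log scale) and replicate 2 (vertical, log scale), for the 2060 regions called by antibody 2 only (red) and the 11511 regions of all 4 libraries (grey), each point 1 region and the dashed line equal values. Most red points crowd at the low end, near the medians of 4.002 and 4.76, and a sparse tail of red points runs upward. Grey points lie there too, with 255 red and 604 grey points at a replicate 2 value at least 2 times that of replicate 1.

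How often a site lacked antibody 1 depended on how strongly antibody 2 enriched it. Among the regions with a peak in both antibody 2 lists, 25.5% of those in the lowest 10% of the replicate 1 list lacked an antibody 1 peak. The share was 8.59% in the 40 to 50% part of that list and 0.945% in the highest 10% (95% exact binomial interval 0.593 to 1.43). Ranked in replicate 2, the lowest 10% had 38.8% and the 70 to 80% part 3.13%. Above that the share in replicate 2 was no lower, with 3.27% in the 80 to 90% part and 4.52% in the highest 10%. The highest 10% of the replicate 2 list held 161 members (7.82%), and that of the replicate 1 list held 22.

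**Figure D2:**
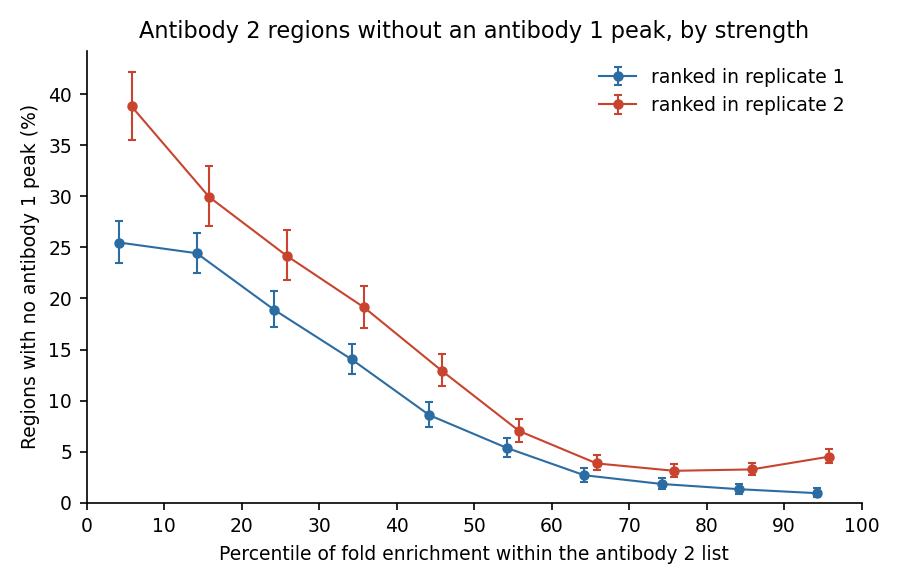
Percentage of regions with a peak in both antibody 2 lists that lacked any antibody 1 peak (vertical), by 10% step of the fold enrichment of the antibody 2 replicate 1 list (blue) or the replicate 2 list (red); bars are 95% exact binomial intervals. The share fell from 25.5% to 0.945% along the replicate 1 list, and from 38.8% to 3.13% along the replicate 2 list before it reached 4.52% in the highest 10%.

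Those 161 members were selected on replicate 2, where their median fold enrichment was 17.5, and a lower value in replicate 1, 6.51, is in part fixed by that selection. The 3217 regions of all 4 libraries selected in the same way had 15.6 and 12.1. Of the 161 members, 139 were outside the highest 10% of replicate 1, while no member was in the highest 10% of replicate 1 and outside that of replicate 2. The regions of all 4 libraries numbered 1356 and 417 in these 2 sets.

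Over all members, replicate 2 was a median of 1.22 times replicate 1, close to the 1.21 of the regions of all 4 libraries. The regions missed only by antibody 1 replicate 1 had 1.35. A ratio of at least 2 was found in 12.4% of the members and 5.25% of the regions of all 4 libraries. It was found in 11.8% of those missed only by antibody 1 replicate 1. Against the regions of all 4 libraries, an imbalance lay in the upper part of the lists. Regions were classed by the lower of their 2 list percentiles, a measure defined alike for both replicates. In the strong members it was set by replicate 1. The steps from 80 to 90% and above 90% of this measure held 31 and 22 members, as did those of replicate 1 alone. The shared regions numbered 2003 and 1861 there, against 2251 and 2280 by replicate 1 alone. Below the 25th percentile the replicate 2 fold enrichment was a median of 1.20 times the replicate 1 value in 1366 members. It was 1.24 times in the shared regions of that class. A ratio of at least 2 was less frequent there in the members, 8.57% (7.13 to 10.2) against 15.1% (12.7 to 17.8) in the shared regions. From the 25th to the 50th percentile the ratios were 1.19 in 492 members and 1.27 in the shared regions. From the 50th to the 75th, 130 members had a ratio of 1.67, against 1.22. From the 75th to the 90th, 50 members had 1.94, against 1.20, and above the 90th the 22 members had 1.68, against 1.16.

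Above the median of both lists there were 202 members. Their median fold enrichments were 6.69 and 13.05, with a ratio of 1.74 (quartiles 1.28 and 2.40), and 194 of the 202 (96.0%) were higher in replicate 2. The 8808 shared regions above the same line had 8.43 and 10.4, a ratio of 1.20 (0.998 and 1.45), and 74.7% were higher in replicate 2. A ratio of at least 2 was found in 78 of the 202 members (38.6%, 95% exact binomial interval 31.9 to 45.7) and in 313 of the shared regions (3.55%, 3.18 to 3.96). In the 1319 regions missed only by antibody 1 replicate 1 it was found in 7.20%, with a median ratio of 1.28.

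The same imbalance was present in the fragment numbers. The ratio of replicate 2 to replicate 1 fragments at the summit had a median of 1.10 in the 201 members above the median of both lists for which it could be recovered, and 0.690 in the shared regions. The ratio of their backgrounds was 0.795 in the members and 0.734 in the shared regions, a smaller difference and in the direction that lowers the fold ratio of the members. Fragments of replicate 1 were counted after division by 0.749 and backgrounds were not, so the fragment and background ratios are on different scales. Above the median of both lists, the fold ratio of the members divided by that of the shared regions was 1.45, a comparison chosen after the data were seen. Over all strengths the same quotient was 1.01. Above the median it was 1.39 without antibody 1 replicate 1 and 1.09 without antibody 1 replicate 2, settings that change the members and the comparison set together.

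The share of regions that lacked antibody 1 was also set against the ratio between the antibody 2 replicates. Among the regions above the median of both lists, 1 of 408 with a ratio under 0.75 lacked antibody 1 (0.245%). The share was 13.2% (58 of 441) at a ratio of 2 to 3, and 44.4% (20 of 45, 95% exact binomial interval 29.6 to 60.003) at a ratio of 3 or more. Over all regions with a peak in both antibody 2 lists there was no such gradient below 3, with 9.87% at a ratio under 0.75, a lowest value of 7.27% at 1.5 to 2, 11.2% at 2 to 3 and 38.7% in the 199 regions at 3 or more. Whether the 2 replicates differed in chromatin, in embryos or in precipitation at these sites was not tested.

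**Figure D3:**
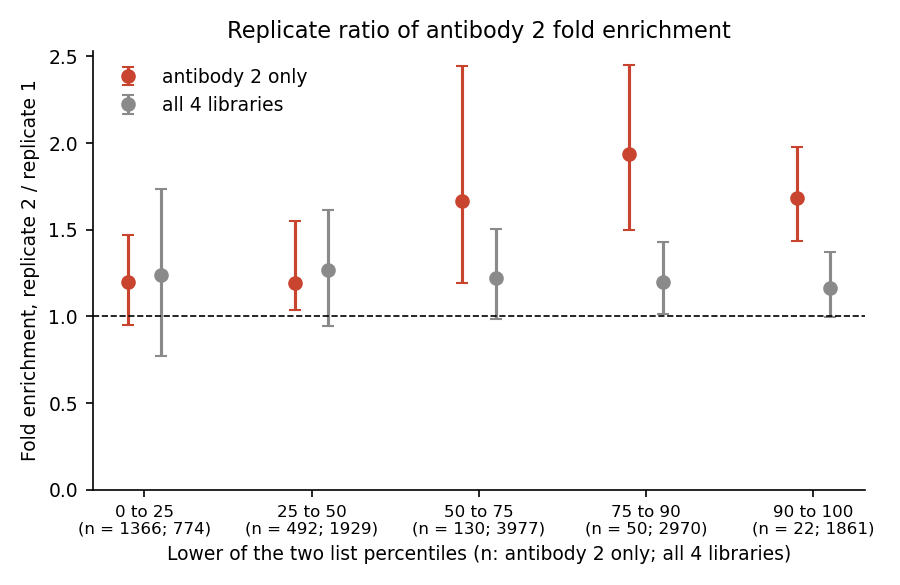
Ratio of fold enrichment in antibody 2 replicate 2 to replicate 1 (vertical) by class of the lower of the 2 list percentiles (horizontal), for regions called by antibody 2 only (red) and regions of all 4 libraries (grey); points are medians, bars run from the lower to the upper quartile, and the dashed line marks equal values. In the 2 lower classes the medians lay close together, and in the 3 upper classes the members had 1.67, 1.94 and 1.68 against 1.22, 1.20 and 1.16.

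The replicates placed the summits of the members close together. The summits of the 2 antibody 2 libraries lay a median of 31 bp apart, with 70.5% of the members within 50 bp and 90.6% within 100 bp. The shared regions had 19 bp, 86.3% and 97.0%. The distance shortened with strength, from 36.5 bp in the weakest class of members to 10 bp in the 22 strongest, where the shared regions of the same class had 15 bp. Ranks of fold enrichment were less alike between replicates across the members (Spearman's rho 0.350, n = 2060) than across the shared regions (0.722, n = 11511). These coefficients are across regions of the same 2 libraries, which are not independent, and the members span a narrower range of fold enrichment.

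Strong sites without an antibody 1 peak were few. The 22 members in the highest 10% of both antibody 2 lists were 1.15% of the 1907 regions there, and such regions were 8.87% of the 21501 with a peak in both lists. Their median fold enrichments were 15.3 and 26.7. The 24 regions of antibody 1 alone, taken without selection on strength, had median fold enrichments of 3.87 and 4.45 in antibody 1 replicates 1 and 2, close to those of all members in antibody 2, and reached 5.15 and 6.34.

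The 15 strongest members were taken by the lower of their 2 list percentiles. The first, at chr4:7932679-7933331, had a fold enrichment of 29.7 in replicate 1 and 45.3 in replicate 2, and its summits were 15 bp apart. The second, at chr9:46261035-46261596, had 19.3 and 38.5, on 205 and 227 fragments, with summits 1 bp apart. The third, at chr13:16380581-16381085, had 18.5 and 31.4 on 176 and 169 fragments. In each of these the summit of replicate 2 repeated that of replicate 1 to within a small part of the peak width, and each recovered number of fragments was several times the median member's (none was recovered for the first in replicate 2).

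Chromosome 13 held more of the strong members, towards its far end. The region at chr13:39905673-39906366 had fold enrichments of 18.3 and 27.0, that at chr13:38378725-38379316 had 17.8 and 29.1, and that at chr13:38360575-38361091 had 16.7 and 27.6. The latter pair started 18150 bp apart, the closest pair among the 15. At chr18:54235985-54236480 the replicates differed most, with 16.7 and 41.9, a ratio of 2.52.

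Among the others, chr7:7643107-7643615 had 16.6 and 32.1, chr14:14241625-14242111 had 16.3 and 23.2, and chr4:39295143-39295661 had 15.7 and 26.3. The region at chr6:48726040-48726559 was the only one of the 15 with the lower value in replicate 2, 21.9 in replicate 1 and 16.6 in replicate 2. Those at chr18:48697445-48697977, chr19:2211296-2211799 and chr5:7036795-7037331 had 14.9, 14.4 and 13.8 in replicate 1 and 28.1, 26.9 and 25.8 in replicate 2. The last, at chr4:47926575-47927059, had nearly equal values of 14.5 and 14.7. Together 14 of the 15 were higher in replicate 2, and the median ratio over all 15 was 1.67.

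The 15 regions lay on 9 chromosomes, with 4 on chromosome 13 and 3 on chromosome 4, and were 485 to 694 bp wide. Their summits were 0 to 83 bp apart between the replicates, within 30 bp in 13 of them. They rested on 135 to 292 fragments in replicate 1 and, in the 14 where the number could be recovered, 137 to 227 in replicate 2. The nearest antibody 1 summit was 936.5 to 279116 bp away (median 2076 bp), and in 7 of the 15 it was within 2000 bp. None of these nearby antibody 1 peaks overlapped the region.

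Shared regions of equal strength show what antibody 1 gave at sites like these. For each of the 15, regions of all 4 libraries with both antibody 2 values within 20% of its own were collected, 12 to 733 of them (median 170). Their median antibody 1 fold enrichment was 10.2 to 24.6 in replicate 1 and 14.2 to 39.3 in replicate 2. The lowest antibody 1 value in any matched set was 2.66 to 7.61 in replicate 1 and 4.57 to 8.37 in replicate 2. These matched regions were required to have an antibody 1 peak, so they describe the usual antibody 1 level at such sites and not how often it was missing. The antibody 1 level at the 15 regions themselves is not in the peak lists, and can be placed only under the calling threshold.

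**Figure D4:**
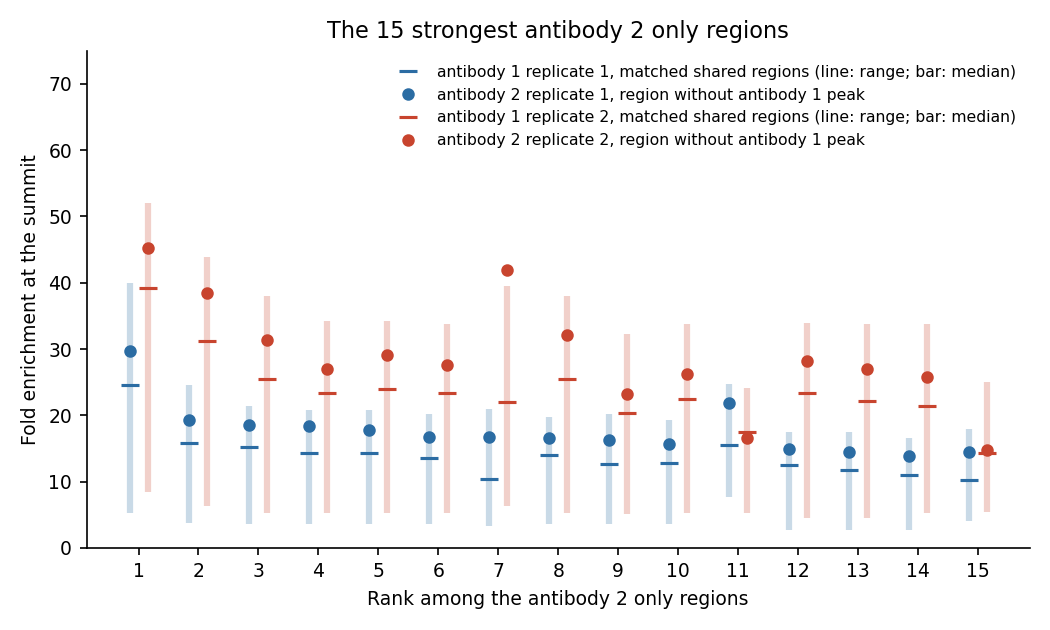
Fold enrichment at the summit (vertical) of the 15 strongest regions called by antibody 2 only, in rank order (horizontal), in antibody 2 replicate 1 (blue points) and replicate 2 (red points); beside them the antibody 1 values of shared regions with like antibody 2 values, as the range (pale line) and median (horizontal bar) in replicate 1 (blue) and replicate 2 (red). The antibody 1 medians of the matched shared regions, 10.2 to 24.6 and 14.2 to 39.3, lay far above the lowest values of 2.66 and 4.57.

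The 5 widest members were unlike each other. The widest, at chr20:36457601-36458899 (1299 bp), was a weak site in replicate 2, with a fold enrichment of 2.99 against 7.27 in replicate 1, and its replicate 2 peak was 365 bp wide. The second, at chr13:1632804-1633852 (1049 bp), was strong and wide in both replicates, with 13.4 and 18.9 and peaks of 1026 and 1028 bp. The third, at chr7:8552085-8553095 (1011 bp), had 5.54 and 24.0, and its summits lay 576 bp apart. The other two, at chr3:33779739-33780663 and chr7:5262482-5263367, were 925 and 886 bp wide with 7.77 and 11.9, and 6.39 and 18.1. Width otherwise followed strength, from a median of 322 bp in the weakest class to 523.5 bp in the strongest. A shared region joins peaks of 4 libraries and a member those of 2, so only the widths of the antibody 2 peaks can be set side by side. In the weakest class the peaks of the members were narrower than those of the shared regions in both libraries, with medians of 276 against 348.5 bp in replicate 1 and 266 against 313.5 bp in replicate 2. In the strongest class they were 513 against 576 bp in replicate 1 and 483.5 against 476 bp in replicate 2.

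Summed over the 20 chromosomes, the members lay along the length where the shared regions lay. Of the 2048 members on the 20 chromosomes, 1608 (78.5%, 95% exact binomial interval 76.7 to 80.3) were in the outer 25% of the length at either end. The share was 78.1% in the regions of all 4 libraries and 77.8% over all 39727 regions on chromosomes, so the value in the members was that of the background. By chromosome the share of members ran from 46.5% (chromosome 13, 66 of 142, 38.1 to 55.0) to 92.4% (chromosome 12). These shares were not set beside those of the shared regions. In steps of 10% of chromosome length, the density was 4.10 members per Mb at the start, 0.454 from 50 to 60% and 4.51 at the end. The shared regions had 23.6, 3.14 and 24.2. Over the 5 classes of strength, 76.0% to 79.7% were in the outer parts. The intervals were wide in the strongest classes, 61.8 to 86.9 in 50 members and 54.6 to 92.2 in 22, so a change there could be missed.

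**Figure D5:**
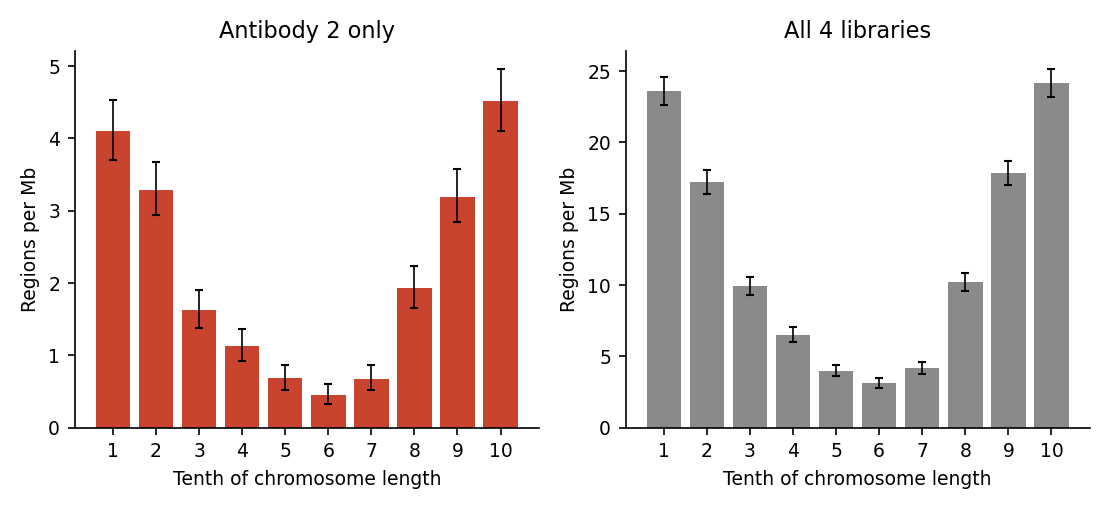
Regions per Mb (vertical, from 0, with different scales) by 10% step of chromosome length summed over the 20 chromosomes (horizontal), for regions called by antibody 2 only (left) and regions of all 4 libraries (right); bars are 95% exact Poisson intervals. Both sets were densest at the ends, 4.10 and 4.51 members per Mb, and sparsest from 50 to 60% of the length, with 0.454 members per Mb.

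Chromosomes 13 and 17 had the highest density of members, 3.10 (142 regions, 95% exact Poisson interval 2.61 to 3.65) and 3.03 per Mb (2.52 to 3.61). Chromosomes 18 and 14 had the lowest, 1.38 (1.09 to 1.72) and 1.47 (1.15 to 1.85). The shared regions were also dense on chromosomes 13 and 17, with 18.4 and 16.2 per Mb, and sparse on 18 and 14, with 9.23 and 10.1. Members made up 14.4% of both sets on chromosome 13, against 15.2% over the 20 chromosomes, and from 12.8% (chromosome 14) to 18.2% (chromosome 7). The densest 1 Mb stretch was 48 to 49 Mb on chromosome 6, with 11 members and 20 shared regions, and it holds the strong member at 48726040 named above. Another 10 stretches held 10 members each, the first in chromosome order being 53 to 54 Mb on chromosome 1 and 15 to 16 Mb on chromosome 2. Members were spread over 618 of 956 stretches, and 17 stretches held members but no shared region.

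Members lay about as close to shared regions as shared regions did to each other. A region of all 4 libraries lay within 2000 bp of 231 of the 2048 members (11.3%, 9.94 to 12.7), and within 2000 bp of 1304 of the 11449 shared regions (11.4%). Within 1000 bp the shares were 4.35% (3.50 to 5.32) and 3.52% (3.19 to 3.87). Any other region lay within 2000 bp of 34.7% of the members and 33.4% of the shared regions. Among the 22 strongest members this was so for 15 (68.2%, 45.1 to 86.1), a set of few regions chosen by strength. The same share was not taken for shared regions of that strength. Another member lay within 2000 bp of 2.44% of the members, while a member lay within 2000 bp of 2.09% of the shared regions and 2.39% of the regions missed only by antibody 1 replicate 1. Of 2028 neighbouring pairs of members, 25 lay within 2000 bp and 64 within 5000 bp.

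The number of members depended on the length of the lists. With each list held to its 12047 peaks of highest −log10 q, 515 regions were called by antibody 2 only. Of these 181 were members in the full lists, and the other 334 had an antibody 1 replicate 2 peak in the full lists and lacked antibody 1 replicate 1 alone. None of the 515 was a region of all 4 libraries in the full lists. Compared within a replicate, 11486 of 23257 antibody 2 regions lacked an antibody 1 peak in replicate 1 (49.4%, 48.7 to 50.03) and 11186 of 35918 in replicate 2 (31.1%, 30.7 to 31.6). The members, which must lack it in both, were 17.9% and 18.4% of these.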

How the data were processed

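Soybean embryo chromatin was sonicated to 100 to 500 bp and ChIP libraries were amplified with 15 PCR cycles, per the labels' protocols. Bowtie 0.12.7 and MACS3 (no version given) are named in the submitters' processing notes. File names carry a q threshold of 0.01, with 1 peak list per library. The genome build and the options of the caller were not given in the sources used here. For every peak the authors' lists give the summit fold enrichment (a ratio to local background), −log10 p and −log10 q as deposited, and a deposited score that was not used. These values are the authors', and were used to describe, rank and filter peaks. Library totals are not in the lists.

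The members, the lists and the comparisons were chosen with earlier results of these data known. The overlap rule is given above, and starts were converted to count from 1. Fragments and background at a summit were recovered by solving fold enrichment as pileup plus 1 over background plus 1, and −log10 p as a Poisson tail. Wholeness of the pileups (tolerance 0.02) was checked in peaks with a single solution and an undivided pileup under 60. It held in 100% of the antibody 2 peaks checked, 10520 in replicate 1 after division by 0.749 and 8184 in replicate 2. The factor was read from these same peaks, and peaks with several solutions were not checked. Fragments are the pileups after this division, and backgrounds were left undivided. The joining and the recovery were tested on simulated data. The last region's end stood for the length of a chromosome, and 12 members on scaffolds were left out of positions. The named regions are the 15 strongest members, the 5 nearest to either side of the overlap threshold, the 3 densest 1 Mb stretches and the 5 widest. Intervals are 95% exact binomial or Poisson intervals. The alternatives were other overlap rules, q thresholds, list lengths, distances and leaving out each library. Python 3.11.15, pandas 2.3.3, numpy 2.4.6, scipy 1.17.1 and matplotlib 3.10.9 were used.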

Additional observations from a re-analysis of the deposited data

How the results depend on the processing

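The number of members was 2077 with any overlap, 2109 with reciprocal overlap, 2070 with summits within 100 bp and 1901 at −log10 q of at least 5. It fell to 1275 at −log10 q of at least 10 and to 515 with lists of equal length. Leaving out 1 library gave 2188 to 11105 (9863 without antibody 1 replicate 2, 11105 without antibody 2 replicate 1, 3228 without antibody 2 replicate 2). As a replicate block, the within-replicate numbers were 11486 and 11186. The labels do not say that a replicate number marks a shared sample.

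With summits within 100 bp, 18.6% of members had an antibody 1 summit within 1000 bp (10.7% as reported), 36 were in the top 10% of both lists (22) and summits lay 27 bp apart (31). At −log10 q of at least 10 these shares and distances were 8.55% and 25 bp, and the median fold enrichment, averaged over the medians of the 2 replicates (4.38 as reported), was 5.42. With lists of equal length they were 5.44%, 18 bp and 8.18, with a rho of 0.526. Leaving out 1 library gave 4.23% to 12.7% near an antibody 1 summit, 10.9% to 19.0% within 2000 bp of a region of all other libraries, a median fold of 3.89 to 4.94, 23 to 198 regions in the top 10% (44 without antibody 1 replicate 2, 198 without antibody 2 replicate 1) and summits 26 to 31 bp apart.

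Other distances gave 1.80% (500 bp) and 0.243% (any overlap) for antibody 1, and 4.35% (1000 bp) and 24.3% (5000 bp) for shared regions. The outer 10% of chromosomes held 39.9%. With −log10 q in place of fold, rho was 0.427 and the median 9.76. Peaks with a single solution, the stronger ones, gave 46 and 62 fragments and backgrounds of 6.64 and 5.15. The causes were not tested, beyond fewer peaks or libraries entering. The quotient of 1.45 above the median of both lists (1.01 over all strengths) was 1.39 to 1.58 under the other rules and lists, 1.60 with fragments, 2.10 with −log10 q and 1.09 to 1.39 without either antibody 1 library, alternatives chosen after seeing the data. Of 75 alternative values, 39 stayed within the range set for no change, 36 moved and 0 reversed. The range set for the quotient was wide, and its values of 1.09 and 2.10 were both counted as no change. Sites under the calling threshold limit every statement on antibody 1.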
